A study of Mus musculus with 4 samples.

Results

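The genes described here encode the heterotrimeric G proteins, the RGS proteins that switch them off, the adenylyl cyclases that some of them control, and the proteins named Gpr for their likeness to G protein-coupled receptors. They were taken by name from the count table: rows whose symbol begins with Gna, Gnb or Gng in the forms used for the subunits, or is Rgs, Gpr or Adcy followed by a number, with 20 or more counts summed over all libraries. Of 35927 gene rows, 159 had such a name and 69 of these reached 20 counts. The 69 were 12 G alpha, 4 G beta and 9 G gamma genes (1 of them the pseudogene Gng2-ps1), 7 Rgs genes, 7 adenylyl cyclase genes and 30 Gpr genes. Of the 90 left out, 26 had 0 counts. Just inside the limit were Gpr30 and Gpr4 with 20 counts each, and just outside were Gpr61 and Rgs3 with 17 each.

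A receptor bound by its ligand makes the alpha subunit of a G protein exchange GDP for GTP and part from the beta-gamma pair, and both then act on effectors. Alpha subunits of the Gs class stimulate adenylyl cyclases, those of the Gi class inhibit them, those of the Gq class activate phospholipase C beta, and those of the G12 class act on guanine nucleotide exchange factors. RGS proteins speed the hydrolysis of GTP and so end the signal. In blood-forming cells these pathways carry chemokine, lipid, nucleotide and protease signals.

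The mutant cells came from mouse embryos labelled Rcor1-/-, in which the gene of the CoREST scaffold protein is disrupted, and the control cells from a mixture of Rcor1+/+ and Rcor1+/- embryos, all of C57BL/6 background at E13.5. Cells of fetal liver that carried CD71 but not TER119 had been sorted, a gate that takes erythroid progenitors. Each group had 2 libraries, and a library pooled RNA from several livers, so the libraries do not show how single embryos vary and the sources used here do not give the proportion of heterozygotes in the control pools. Library totals ran from 15053229 to 26892375 counts. Levels are given as CPM, with library totals scaled by TMM factors, in the order replicate 1, replicate 2. Changes are log2 fold changes of mutant over control ± SE from edgeR's quasi-likelihood test, with n = 2 libraries per group, and "rose" or "fell" means an adjusted p under 0.05.

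Rcor1 itself was at 77.9 and 78.9 CPM in the mutant libraries, against 160 and 175 CPM in the control libraries (-1.09 ± 0.06, adjusted p = 4.6e-11). Transcript thus remained in the libraries labelled -/-; the sources used here do not say which part of the gene is deleted, so counts over the whole gene do not check the label. All 8 erythroid marker genes looked at were present and all 8 fell, among them Epor and Klf1, and together they took 0.41% and 0.395% of counts in mutants and 0.573% and 0.586% in controls. Markers of cells outside the gate were present as well. The hepatoblast genes Afp and Alb averaged 661 ± 3.12 and 433 ± 8.44 CPM in mutants and 450 ± 7.49 and 332 ± 3.0 CPM in controls (SD, n = 2 each), levels like those of erythroid markers such as Gata1 (367 ± 3.44 CPM in mutants and 536 ± 2.7 CPM in controls). Of the markers tested, 8 of 10 megakaryocyte genes rose and 1 fell (summed share 0.0257% and 0.0249% of counts in mutants, 0.0112% and 0.0108% in controls), and 10 of 15 hepatoblast genes rose (0.151% and 0.15%, against 0.102% and 0.101%). The other lists held 8 of 11 mesenchymal genes that rose (0.0031% and 0.003%, against 0.00104% and 0.00107%), 5 risers and 1 faller of 11 endothelial genes (0.0204% and 0.0201%, against 0.0184% and 0.0182%), and 2 risers and 1 faller of 9 macrophage genes (0.00271% and 0.00267%, against 0.00202% in each control). Both mast cell genes tested rose (0.0012% and 0.00122%, against 0.000238% and 0.000267%), with Mcpt1, Mcpt4 and Tpsab1 at 0 counts, and so did 2 of 3 lymphocyte genes (0.00136% and 0.00128%, against 0.000662% and 0.000714%). Cd163 of the macrophage list was at 0 counts as well. Over all genes tested, 28.3% rose and 29.2% fell. The count filter kept 7 mesenchymal, 2 hepatoblast, 2 lymphocyte, 1 endothelial, 1 megakaryocyte and 1 mast cell gene only through the mutant libraries. Among genes past its minimum in all libraries, 7 of 9 megakaryocyte, 10 of 13 hepatoblast and 3 of 4 mesenchymal genes rose. So did 5 of 10 endothelial, 2 of 8 macrophage, 1 of 1 mast cell and 0 of 1 lymphocyte genes. The part of such cells in the results below was not tested, and in sorted bulk samples fewer cells of a type and less RNA per cell cannot be told apart.

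Of the 69 genes, 62 passed the filter on low counts and were tested. Of these 31 rose, 15 fell and 16 did not pass, so that 74.2% were called where 57.5% of all 13140 genes tested were. Rises made up 50% of the 62, against 28.3% of all genes, and falls 24.2%, against 29.2% of all genes. Rises of at least 2-fold were seen for 23 of the 62, where 11.7% of all genes rose as far, and falls of at least 2-fold for 2, where 1.8% fell as far. The median log2 fold change of the 62 was 0.34 and that of all genes 0.01. The groups did not overlap for 49 of the 62, and for 77.9% of all genes. The filter on low counts leans these figures upward: 9 of the 62 were kept only because both mutant libraries passed the count minimum, and 1 because both control libraries did. In the 52 genes past that minimum in all libraries, 22 rose and 14 fell (42.3% and 26.9%), where 26.2% and 31.7% of all genes past it did.

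**Figure D1:**
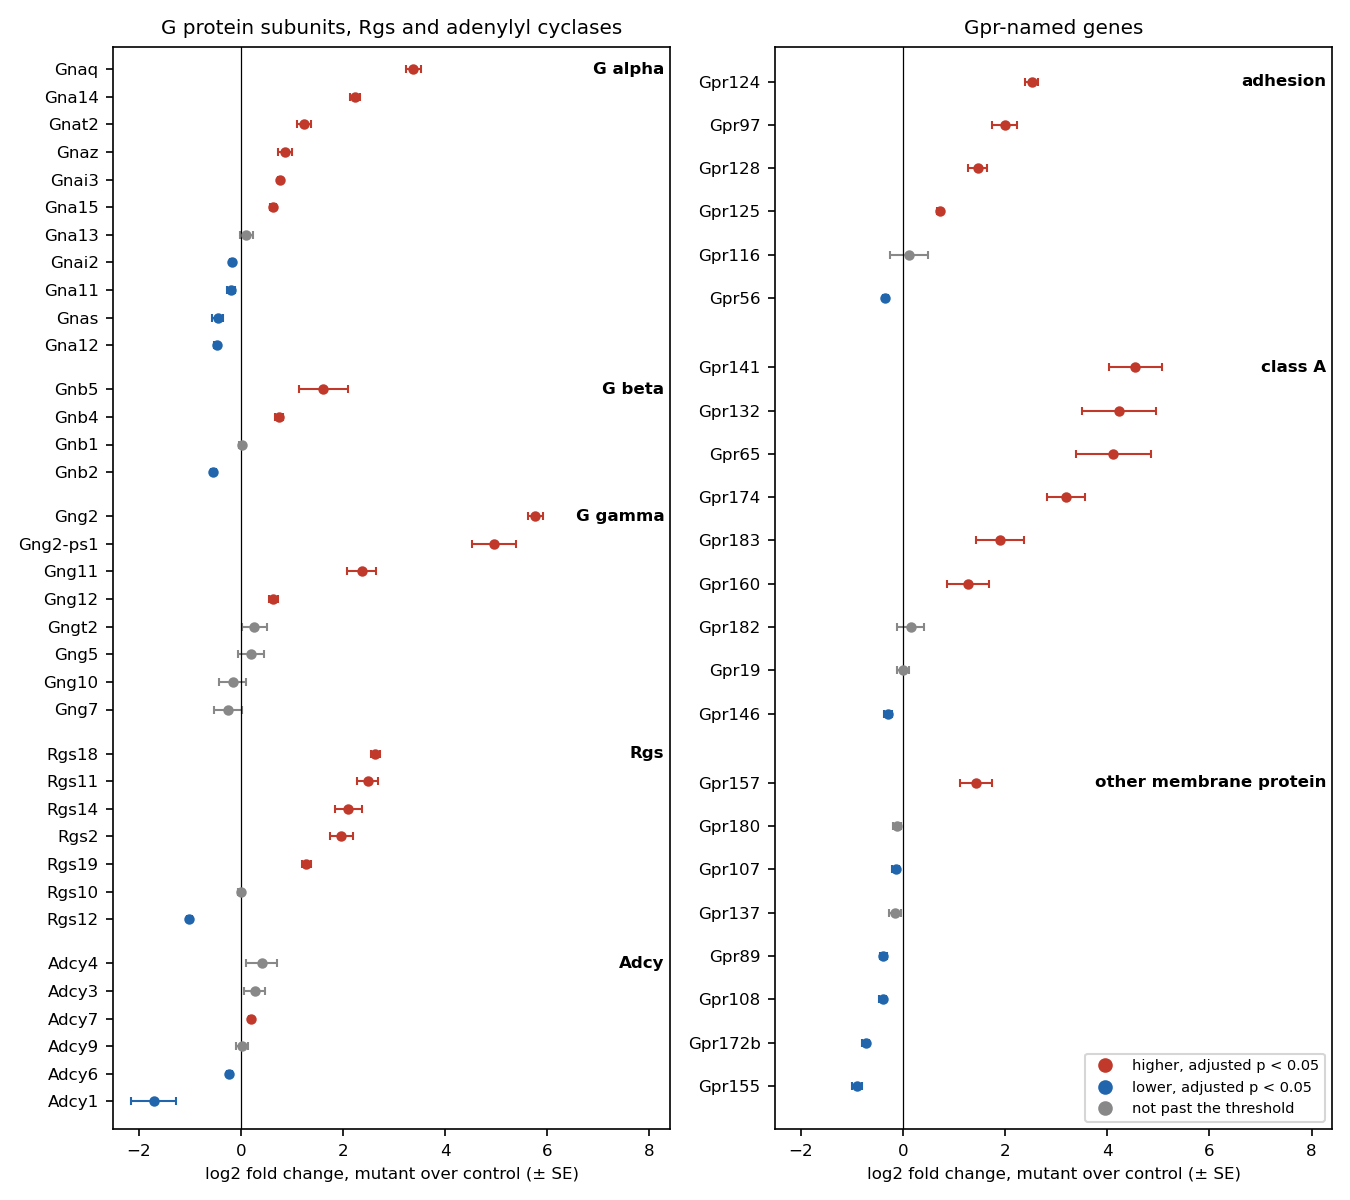
Log2 fold change of mutant over control for 59 of the 62 tested genes, with bars of 1 SE (n = 2 libraries per group); red points rose, blue points fell, grey points did not pass. Gpr171, with 0 counts in both control libraries, is left off, as are 2 genes not reported here, and the values of Gpr141, Gpr132 and Gpr65 rest on 2 or 3 control counts. Gng2 lies farthest to the right at 5.76. Adcy1, kept by the count filter only through the control libraries, lies farthest to the left at -1.71.

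Within the Gq class, the scarce alpha subunits of the controls rose the furthest. Gnaq, the founding member of the class, was at 27.8 and 30.7 CPM in the mutant libraries, against 2.23 and 3.44 CPM in the control libraries. That is a change of 3.38 ± 0.15 (10.4-fold, adjusted p = 3.34e-11). Gna14, a close relative found in fewer tissues, was at 26.7 and 26.6 CPM in mutants, against 5.75 and 5.55 CPM in controls (2.24 ± 0.10, adjusted p = 1.29e-11). Gna15, the blood cell form that couples to many receptors, was at 113 and 108 CPM in mutants and 71.5 and 71.3 CPM in controls (0.63 ± 0.06, adjusted p = 4.33e-08). For these genes every mutant library lay above both control libraries, and groups did not overlap for 77.9% of all genes. Gna11, widely expressed and able to stand in for Gnaq, moved the other way, at 39.2 and 39.3 CPM in mutants and 44.9 and 45.2 CPM in controls (-0.20 ± 0.07, adjusted p = 0.0294). Its call was lost when any 1 library was left out, with DESeq2, and under upper quartile or library total scaling. Over those settings its adjusted p ran from 0.0516 to 0.499, and over the settings that kept the call its lowest was 0.00573.

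The class as a whole held more counts in the mutant, and its make-up differed. Summed over the 4 Gq genes, the libraries held 207 and 205 CPM in mutants and 124 and 126 CPM in controls. To compare genes with each other, levels were divided by exon length (CPM per kb). On that scale Gna15 remained the leading Gq gene of every library, with 70.5% and 69.1% of the class in mutants and 70.6% and 70.2% in controls. Gnaq and Gna14 made up 6.01% and 9.5% of the class in mutant replicate 1 and 6.82% and 9.7% in mutant replicate 2, against 0.766% and 3.24% in control replicate 1 and 1.18% and 3.13% in control replicate 2. Gna11 made up 14% and 14.4% in mutants and 25.4% and 25.5% in controls. The order by level per kb was Gna15, Gna11, Gna14, Gnaq in all 4 libraries.

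Of the Gi class, which restrains adenylyl cyclase, 3 of 4 tested genes rose and 1 fell, where 28.3% and 29.2% of all genes did. Gnai3 was at 491 and 505 CPM in the mutant libraries and 288 and 299 CPM in the control libraries, a change of 0.76 ± 0.04 (1.7-fold, adjusted p = 2.01e-10). Gnai2 was at 335 and 342 CPM in mutants and 385 and 381 CPM in controls (-0.18 ± 0.04, adjusted p = 0.00173), and had -0.04 and adjusted p = 0.401 under library total scaling, in a range that began at 2.04e-06. The order of the pair therefore differed between the groups: per kb of exon, Gnai3 took 49.5% and 49.7% of the class in mutants and Gnai2 47.6% and 47.7%, while in controls Gnai2 took 64.4% and 63.4% and Gnai3 34.1% and 35.0%. Gnat2, the transducin of cone photoreceptors, was at 11.0 and 10.6 CPM in mutants, against 4.58 and 4.63 CPM in controls (1.23 ± 0.13, adjusted p = 5.29e-07). Gnaz, a slowly hydrolysing member known from platelets and neurons, was at 12.2 and 10.8 CPM in mutants, against 5.98 and 6.74 CPM in controls (0.86 ± 0.13, adjusted p = 2.28e-05). Gnai1, with 10 and 0 counts in mutants and 9 and 11 in controls, was left out by the filter, and without it did not pass (adjusted p = 0.303).

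No alpha subunit of the remaining classes passed as higher. Gnas, the stimulator of adenylyl cyclase, was at 11.4 and 11.3 CPM in mutants and 16.6 and 14.4 CPM in controls (-0.45 ± 0.11, adjusted p = 0.00191). The Gnas locus also yields antisense and alternative first-exon transcripts, and the sources used here do not say how reads of overlapping genes were counted, which leaves its level uncertain. Of the G12 class, Gna12 fell, with 231 and 221 CPM in mutants and 308 and 321 CPM in controls (-0.48 ± 0.05, adjusted p = 1.41e-07). Gna13 was at 128 and 146 CPM in mutants and 114 and 140 CPM in controls, groups that overlap (0.11 ± 0.13, adjusted p = 0.524). With the replicate number as a block it passed (0.11, adjusted p = 0.0144), and without control replicate 2 its value was 0.25 with adjusted p = 0.000392, the low end of a range that reached 0.929.

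**Figure D2:**
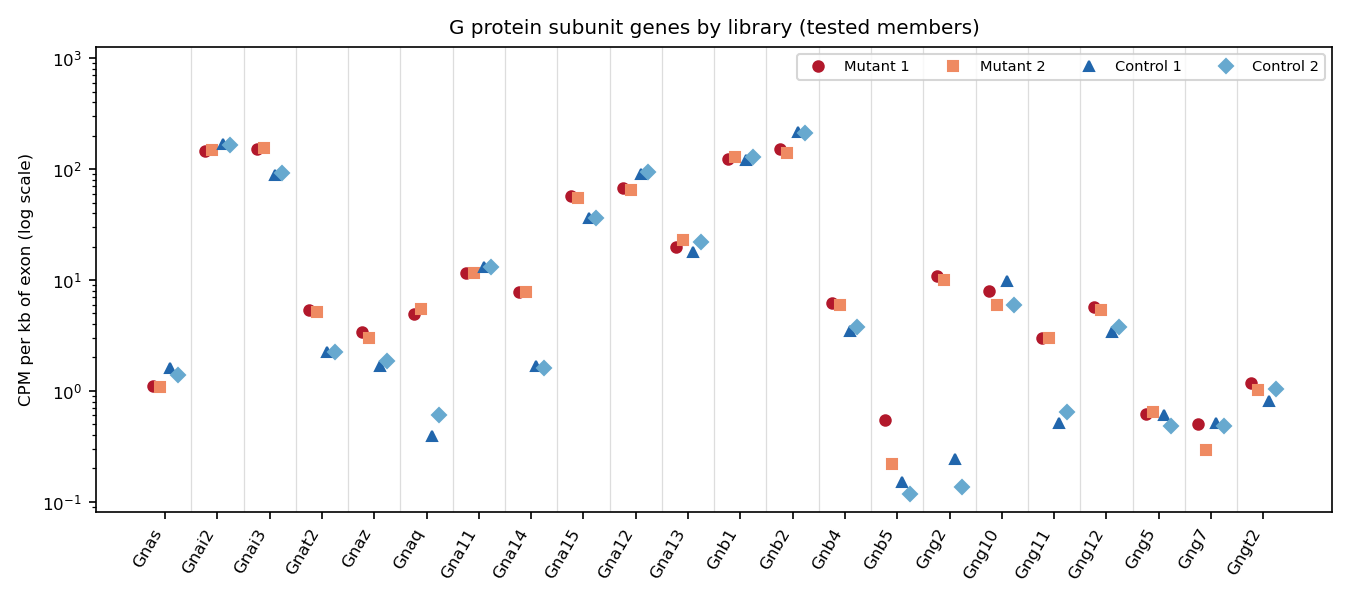
Level per kb of exon (log scale) of the 22 tested G protein subunit genes other than the pseudogene in each library, mutants left of controls. The mutant points of Gnaq, Gna14, Gng2 and Gng11 lie well above the control points, and those of Gnb1 and Gna13 are mixed with them.

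Several members lie next to each other in the genome, and some neighbours moved alike while others did not. Going by the order of protein-coding genes in RefSeq (GRCm38.p6), Gnaq and Gna14 are adjacent on chromosome 19 and both rose. Gnat2 and Gnai3, adjacent on chromosome 3, also both rose. On chromosome 10, Gna15 rose (0.63) beside Gna11 (-0.20), and on chromosome 8 Gpr56 fell (-0.35) beside Gpr97, which rose (1.99). Rgs2 and Rgs18, which both rose, are separated by 3 protein-coding genes on chromosome 1. The promoter windows of the adjacent risers Gnaq and Gna14, of Gnat2 and of Gng2, the member with the steepest rise among those with counts in every library, are shown to let the sequences be set beside the changes. Each runs from 250 bases before to 50 after the RefSeq start on the strand of the gene, at chr19:16132434-16132733 (+) for Gnaq, chr19:16435417-16435716 (+) for Gna14, chr3:108092816-108093115 (+) for Gnat2 and chr14:19976644-19976943 (-) for Gng2, all GRCm38.p6. Capitals mark matches to the cores searched on both strands: AAATCA for Gfi1 and Gfi1b, AGATAA for GATA factors and AGGAAG for ETS factors.
Gnaq: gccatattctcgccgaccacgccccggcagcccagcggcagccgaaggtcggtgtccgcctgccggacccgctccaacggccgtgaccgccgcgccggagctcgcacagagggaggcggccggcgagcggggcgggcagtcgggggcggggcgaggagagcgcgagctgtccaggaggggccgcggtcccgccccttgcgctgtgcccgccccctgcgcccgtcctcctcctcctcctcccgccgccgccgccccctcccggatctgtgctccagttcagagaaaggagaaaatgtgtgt
Gna14: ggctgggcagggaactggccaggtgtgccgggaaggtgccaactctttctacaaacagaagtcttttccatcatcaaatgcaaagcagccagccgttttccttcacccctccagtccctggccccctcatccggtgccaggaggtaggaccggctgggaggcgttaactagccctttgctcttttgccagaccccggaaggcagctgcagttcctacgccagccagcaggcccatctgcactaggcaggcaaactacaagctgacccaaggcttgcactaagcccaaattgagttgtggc
Gnat2: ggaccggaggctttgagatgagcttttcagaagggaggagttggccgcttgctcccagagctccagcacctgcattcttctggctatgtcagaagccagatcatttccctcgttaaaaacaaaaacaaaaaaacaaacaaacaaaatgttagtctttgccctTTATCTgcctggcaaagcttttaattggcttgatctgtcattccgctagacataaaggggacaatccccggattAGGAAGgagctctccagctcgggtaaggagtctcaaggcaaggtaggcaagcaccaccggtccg
Gng2: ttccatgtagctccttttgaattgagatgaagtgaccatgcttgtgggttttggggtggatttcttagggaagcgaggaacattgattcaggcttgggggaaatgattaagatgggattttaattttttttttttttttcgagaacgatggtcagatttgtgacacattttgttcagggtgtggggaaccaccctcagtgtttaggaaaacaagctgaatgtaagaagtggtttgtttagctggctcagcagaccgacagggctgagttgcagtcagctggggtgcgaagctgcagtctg
Gnat2 held 1 GATA core, read on the other strand, and 1 ETS core that did not overlap it, and the other windows held none of these letters.

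RefSeq promoter windows were at hand for 53 of the 69 genes, 75 windows in all. The Gfi core was in 14.7% of these windows and in 14% of all 32851 windows in the table. The GATA core was in 6.67% of them and in 11.2% of all windows, and the ETS core in 37.3% of them and in 35.4% of all windows. Among the 18 windows of members that rose at least 2-fold, 4 held the GATA core (22.2%), 4 the Gfi core (22.2%) and 10 the ETS core (55.6%). A match describes letters in the window and not a bound site.

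Among beta and gamma subunits, the pair that anchors the G protein to the membrane, the change of Gng2 stood out in size. Gng2 was at 47.6 and 44.4 CPM in the mutant libraries, against 1.06 and 0.596 CPM in the control libraries (5.76 ± 0.15, 54.3-fold, adjusted p = 6.74e-15). The control value rests on 27 and 13 counts. Its pseudogene Gng2-ps1 had 71 and 46 counts in mutants and 1 and 3 in controls. Reads can be shared by near-identical copies, so the division between the pair is uncertain, and the summed row gave a change of 5.71 (adjusted p = 1.82e-15), a check added after seeing the data. Gng2-ps1 was kept by the filter only through the mutant libraries. Its fitted change was 4.95, with 4.27 without control replicate 1 and 5.95 without control replicate 2.

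Gng11, a farnesylated gamma subunit abundant in platelets and endothelium, was at 2.76 and 2.74 CPM in mutants, against 0.469 and 0.596 CPM in controls (2.37 ± 0.29, adjusted p = 2.1e-06). Gng12 was at 27.1 and 25.1 CPM in mutants and 16.1 and 17.8 CPM in controls (0.63 ± 0.09, adjusted p = 1.31e-05). Gng5, Gng7, Gng10 and Gngt2 did not pass. Gng10 differed between replicates in both groups, at 9.48 and 7.13 CPM in mutants and 11.7 and 7.15 CPM in controls. Without control replicate 2 it had -0.47 and adjusted p = 0.00291, and without control replicate 1 it had 0.24 and adjusted p = 0.24, in a range that reached 0.99. Gng3, with 9 and 4 counts in mutants and 6 and 3 in controls, was left out by the filter, and without it did not pass (adjusted p = 0.572). Per kb of exon and without the pseudogene, Gng2 made up 36.0% and 38.1% of the gamma level in mutants, against 1.51% and 1.08% in controls. Gng10 held the largest share in both controls (61.1% and 47.4%) and 26.6% and 22.6% in mutants. The summed level of the 9 gamma rows was 95.6 and 87.4 CPM in mutants and 34.6 and 31.5 CPM in controls.

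Of the beta subunits, Gnb4 rose and Gnb2 fell. Gnb4 was at 38.4 and 37.3 CPM in mutants and 21.7 and 23.6 CPM in controls (0.74 ± 0.08, adjusted p = 7.71e-07). Gnb2 was at 377 and 347 CPM in mutants and 535 and 521 CPM in controls (-0.54 ± 0.05, adjusted p = 3.51e-08). Gnb1 was at 389 and 404 CPM in mutants and 378 and 405 CPM in controls (0.02 ± 0.05, adjusted p = 0.78), and under library total scaling it had 0.15 and adjusted p = 0.00769, in a range that reached 0.96. Per kb, Gnb2 led Gnb1 in every library, with 53.9% and 51.1% of the class in mutants and 63.7% and 61.4% in controls, while Gnb1 held 43.7% and 46.7% in mutants and 35.2% and 37.5% in controls. Gnb5 is the divergent beta subunit that partners RGS proteins of the R7 family in place of a gamma subunit. The filter kept it only through the mutant libraries. It had 34 and 8 counts in mutants and 9 and 6 in controls (1.61 ± 0.48, adjusted p = 0.00828). That call rests on mutant replicate 1: without it the value was 0.68 and adjusted p = 0.446, and DESeq2 gave adjusted p = 0.123, in a range that began at 0.00149.

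**Figure D3:**
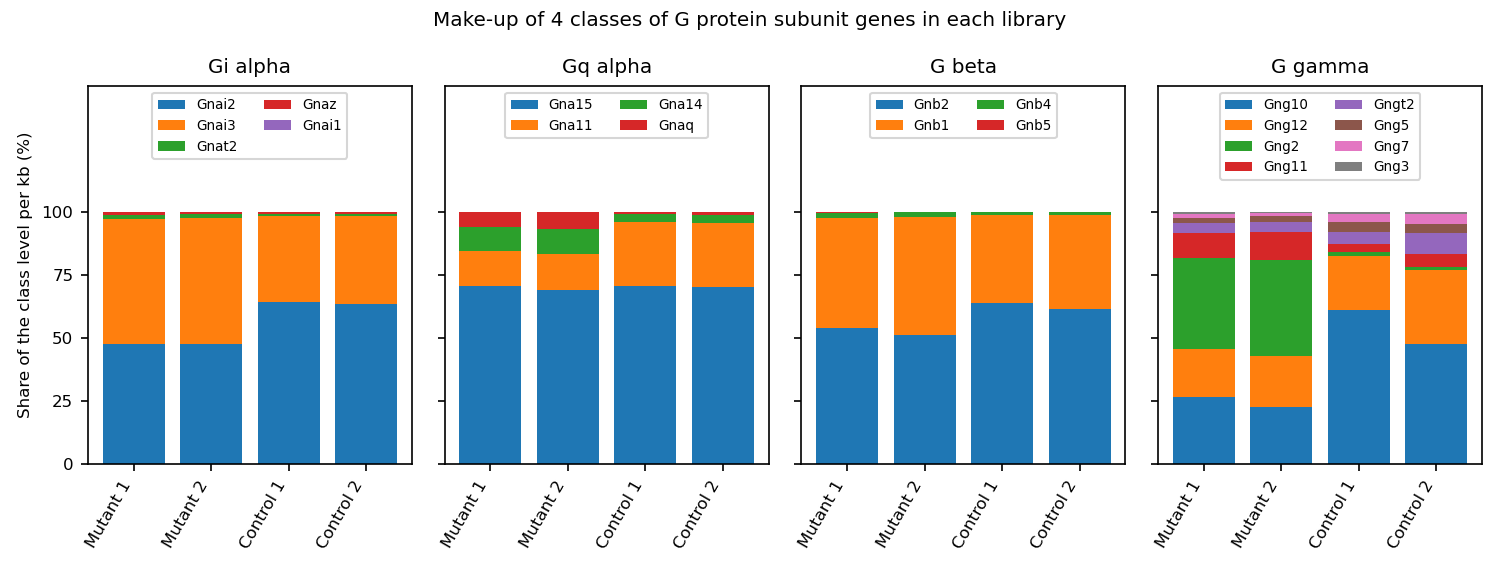
Share of each gene in the level per kb of exon of its class, by library, with mutants left of controls. Gnai3 takes nearly the same share as Gnai2 in mutants and a smaller one in controls, and Gng2 takes 36.0% and 38.1% of the gamma level in mutants, against 1.51% and 1.08% in controls.

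Of 7 Rgs genes, 5 rose, each at least 2-fold, 1 fell and 1 did not pass. Over all genes tested, 28.3% rose, 11.7% rose at least 2-fold and 29.2% fell. Rgs18, known from megakaryocytes and platelets, was at 53.5 and 54.7 CPM in the mutant libraries, against 8.56 and 8.85 CPM in the control libraries (2.64 ± 0.09, 6.21-fold, adjusted p = 1.72e-13). Megakaryocyte markers took 0.0257% and 0.0249% of counts in mutants and 0.0112% and 0.0108% in controls. Rgs2, which acts mainly on the Gq class, was at 5.10 and 6.11 CPM in mutants, against 1.72 and 1.05 CPM in controls (1.97 ± 0.22, adjusted p = 1.01e-06). Rgs11, an R7 family member that needs Gnb5 for its stability, was at 6.20 and 6.11 CPM in mutants, against 1.06 and 1.15 CPM in controls (2.48 ± 0.20, adjusted p = 1.65e-08). For the 3 genes the lowest mutant library was above the highest control library, and groups did not overlap for 77.9% of all genes.

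Rgs19, a regulator of the Gi class, was at 39.6 and 38.9 CPM in mutants, against 16.7 and 15.6 CPM in controls (1.28 ± 0.08, adjusted p = 1.03e-09). Rgs14, Rgs12 and Rgs10 belong to the R12 family, of which 1 rose, 1 fell and 1 did not pass. Rgs14, which also binds inactive Gi subunits, was at 4.61 and 5.54 CPM in mutants, against 1.56 and 0.688 CPM in controls (2.11 ± 0.27, adjusted p = 1.08e-05). The controls differed from each other, and the value was 2.84 without control replicate 1 (adjusted p = 1.1e-15) and 1.66 without control replicate 2 (adjusted p = 5.18e-10). Rgs12, a large multidomain member, fell, with 99.6 and 102 CPM in mutants and 205 and 202 CPM in controls (-1.01 ± 0.05, 2.02-fold lower, adjusted p = 2.09e-11). Rgs10 was at 156 and 163 CPM in mutants and 162 and 158 CPM in controls (adjusted p = 0.965), and under library total scaling it passed with 0.13 (adjusted p = 0.0242).

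Per kb of exon, Rgs10 was the leading Rgs gene in every library, with 67.3% and 67.8% of the class in mutants and 76.0% and 76.2% in controls. The next places differed. In mutants Rgs18 (13% and 12.8%) stood ahead of Rgs19 (9.09% and 8.63%) and Rgs12 (7.42% and 7.35%). In controls Rgs12 (16.7% and 16.8%) stood ahead of Rgs19 (4.17% and 3.99%) and Rgs18 (2.26% and 2.39%). The summed level of the class did not separate the groups to the same degree, with 365 and 377 CPM in mutants and 396 and 387 CPM in controls.

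Of 6 tested adenylyl cyclases, which make cAMP, 1 rose, 2 fell and 3 did not pass. Rises made up 16.7% and falls 33.3%, near the 28.3% and 29.2% of all genes. Adcy7, the cyclase most abundant in blood cells, was at 402 and 406 CPM in the mutant libraries and 347 and 359 CPM in the control libraries (0.20 ± 0.04, 1.15-fold, adjusted p = 0.000872). Adcy6, a form inhibited by calcium, was at 110 and 107 CPM in mutants and 127 and 128 CPM in controls (-0.23 ± 0.05, adjusted p = 0.000918), and lost its call under library total scaling (-0.09, adjusted p = 0.132, in a range that began at 9.94e-07). Adcy7 took 75% and 75.9% of the class per kb in mutants and 70.1% and 70.3% in controls. Adcy1, a calmodulin-stimulated form known from neurons, was kept by the filter only through the control libraries. It had 7 and 4 counts in mutants and 21 and 20 in controls (-1.71 ± 0.44, adjusted p = 0.0032). DESeq2 gave adjusted p = 0.0805, in a range that began at 0.00121. Adcy3, Adcy4 and Adcy9 did not pass, and Adcy5, left out by the filter, did not pass without it (adjusted p = 0.597).

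Of the Gpr genes, 26 of 30 were tested, and 13 rose, 7 fell and 6 did not pass. Rises made up 50% and falls 26.9%, against 28.3% and 29.2% of all genes. They are a mixed group by name only. A total of 8 encode adhesion receptors, now named Adgr in RefSeq, with long extracellular parts. Another 14 encode class A receptors, and 8 encode other membrane proteins, several of which sit in the Golgi or the lysosome. Among genes past the count minimum in all libraries, of which 26.2% rose and 31.7% fell over the whole table, 5 of 7 adhesion receptors rose and 1 fell, 1 of 8 other membrane proteins rose and 5 fell, and of 4 class A receptors 1 fell and none rose.

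Gpr56 (Adgrg1), an adhesion receptor of blood stem cells and the developing brain that binds collagen, was the adhesion gene with the most counts. It was at 274 and 254 CPM in mutants and 346 and 325 CPM in controls (-0.35 ± 0.05, adjusted p = 1.33e-05). Its genomic neighbour Gpr97 moved the other way. Gpr97 (Adgrg3), known from neutrophils, was at 3.33 and 3.25 CPM in mutants, against 0.860 and 0.780 CPM in controls (1.99 ± 0.25, adjusted p = 2.8e-06). In both genes the groups did not overlap, which held for 77.9% of all genes.

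Gpr124 (Adgra2), a co-receptor for Wnt7 ligands in brain endothelium, rose the furthest of the adhesion receptors. It was at 26.3 and 21.9 CPM in mutants, against 4.14 and 4.31 CPM in controls (2.52 ± 0.13, 5.75-fold, adjusted p = 3.22e-11). Of the endothelial markers, Tek (8.28-fold), Pecam1 (4.43-fold), Esam (3.24-fold), Tie1 (2.89-fold) and Kdr (2.32-fold) rose and Eng (0.66-fold) fell. Cdh5 (1.06-fold), Stab2 (1.11-fold), Ramp2 (1.87-fold), Lyve1 (0.795-fold) and Egfl7 (0.933-fold) did not pass. The summed share was 0.0204% and 0.0201% of counts in mutants and 0.0184% and 0.0182% in controls, on unscaled totals that lean toward the mutants, so no rise is read from it. It was mostly Egfl7 (140 ± 0.868 CPM in mutants and 150 ± 1.03 CPM in controls). Mesenchymal markers took 0.0031% and 0.003% of counts in mutants and 0.00104% and 0.00107% in controls. Gpr125 (Adgra3), its nearest relative, was at 203 and 209 CPM in mutants and 122 and 129 CPM in controls (0.72 ± 0.05, adjusted p = 2.39e-09). Gpr128 (Adgrg7) was at 5.97 and 5.60 CPM in mutants, against 2.27 and 1.93 CPM in controls (1.46 ± 0.18, adjusted p = 2.75e-06). Gpr116 did not pass, and Gpr133, left out by the filter, had 4 and 1 counts in mutants and 18 and 7 in controls (ratio of summed counts 0.225, 95% counting interval 0.0672 to 0.597). Fitted without the filter, Gpr133 was lower (-2.14, adjusted p = 0.00636).

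The class A risers were all scarce, and all 7 passed the count filter only through the mutant libraries, so nothing is read from their count. Gpr171 had 23 and 11 counts in the mutant libraries and 0 and 0 in the control libraries. With the controls set to 3 counts over the group it was 12.7-fold higher, a value that leaves out the counting error of the mutants. Gpr141 had 45 and 23 counts in mutants, against 2 and 1 in controls (ratio 25.5, interval 8.35 to 127). Gpr132 and Gpr65 belong to a family of receptors that sense protons. Gpr132 had 28 and 10 counts in mutants, against 2 and 0 in controls (ratio 21.3, interval 5.52 to 183), and Gpr65 had 26 and 9, against 2 and 0 (ratio 19.7, interval 5.05 to 169). Their relative Gpr4, with 6 and 2 counts in mutants and 10 and 2 in controls, was left out by the filter, and without it did not pass (adjusted p = 0.69).

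Gpr174, a receptor for lysophosphatidylserine in lymphocytes, had 79 and 30 counts in mutants, against 6 and 7 in controls (3.19 ± 0.37, adjusted p = 1.37e-06). Gpr183, which senses oxysterols and guides B cells, had 20 counts in each mutant library, against 7 and 5 in controls (1.90 ± 0.46, adjusted p = 0.00204). For both the groups did not overlap, which held for 77.9% of all genes. Lymphocyte markers took 0.00136% and 0.00128% of counts in mutants and 0.000662% and 0.000714% in controls. Gpr160 had 24 and 15 counts in mutants and 7 and 11 in controls (1.27 ± 0.41, adjusted p = 0.0146). It lost its call with DESeq2 (adjusted p = 0.176) and when control replicate 1 (0.86, adjusted p = 0.227), mutant replicate 1 (adjusted p = 0.0732) or mutant replicate 2 (adjusted p = 0.05) was left out, and its lowest adjusted p was 0.00596.

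The class A genes with more counts did not rise. Gpr146 was at 32.7 and 28.9 CPM in mutants and 38.6 and 37.3 CPM in controls (-0.30 ± 0.08, adjusted p = 0.00599), and lost its call without mutant replicate 2 (adjusted p = 0.0975) and under library total scaling (adjusted p = 0.115), in a range that began at 0.000111. Gpr19 and Gpr182 did not pass. Gpr30, the estrogen-responsive receptor now named Gper1, had 1 and 14 counts in mutants and 1 and 4 in controls, and Gpr35 had 8 and 8, against 4 and 1. Both were left out by the filter, and without it neither passed (adjusted p = 0.0737 for Gpr30 and adjusted p = 0.0576 for Gpr35).

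**Figure D4:**
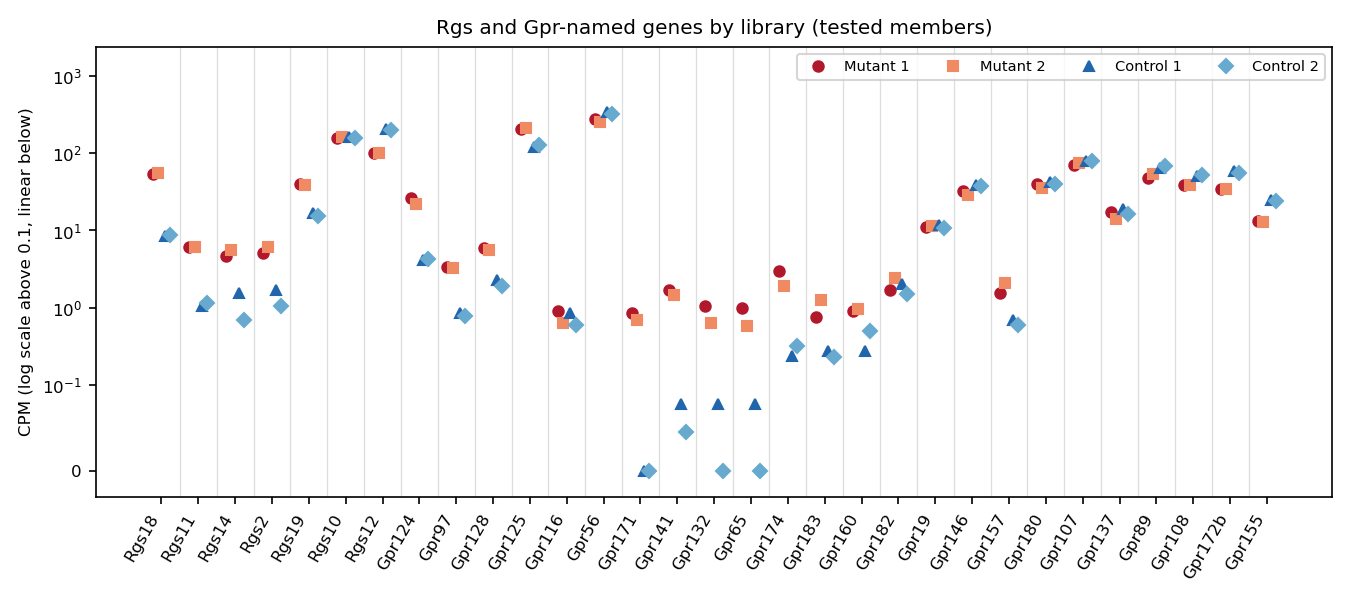
CPM of the 7 Rgs genes and 24 of the 26 tested Gpr genes in each library, mutants left of controls; the axis is logarithmic above 0.1 and linear below, so that 0 can be drawn. The largest separations are in the scarce receptors Gpr171, Gpr141, Gpr132, Gpr65 and Gpr174, whose control points lie at 0.321 CPM or lower.

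Of the other membrane proteins with a Gpr name, the falls were moderate. Gpr155, a lysosomal cholesterol sensor, was at 13.4 and 12.7 CPM in mutants and 25 and 23.9 CPM in controls (-0.90 ± 0.09, 1.86-fold lower, adjusted p = 2.94e-07). Gpr172b, which RefSeq names Slc52a2 and which is a riboflavin transporter, was at 34.1 and 34.6 CPM in mutants and 58.4 and 55.7 CPM in controls (-0.73 ± 0.07, adjusted p = 2.21e-07). Gpr108, a Golgi protein, was at 38.8 and 38.6 CPM in mutants and 50.6 and 51.5 CPM in controls (-0.40 ± 0.07, adjusted p = 0.00016). The Golgi acidity regulator Gpr89 was at 48.3 and 53.6 CPM in mutants and 63.6 and 69.1 CPM in controls (-0.38 ± 0.08, adjusted p = 0.000312). For these 4 genes both mutant libraries lay below both control libraries, and groups did not overlap for 77.9% of all genes. Gpr107, related to Gpr108, was at 69.9 and 74.4 CPM in mutants and 79.7 CPM in both controls (-0.15 ± 0.06, adjusted p = 0.046). It lost its call when any 1 library was left out, with DESeq2, with the stricter count filter and under upper quartile or library total scaling. Over those settings its adjusted p ran from 0.0507 to 0.898, and over the settings that kept the call its lowest was 0.00831. Gpr157 rose, at 1.55 and 2.10 CPM in mutants, against 0.704 and 0.596 CPM in controls (1.43 ± 0.32, adjusted p = 0.000915), and Gpr137 and Gpr180 did not pass.

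Around these genes, the partners of the G protein cycle were read from lists of other symbols. Of 33 tested receptors with known ligands, 28 rose, 1 fell and 4 did not pass, where 28.3% of all genes rose and 29.2% fell. Of the 33, 15 were kept only through the mutant libraries; of the 18 past the minimum in all libraries 14 rose and 1 fell. F2rl1, a receptor cut by trypsin-like proteases, had 45 and 37 counts in mutants, against 1 and 0 in controls (ratio 92.1, interval 16.1 to 3680). The adenosine receptor gene Adora3 had 135 and 56 counts, against 4 and 4 (4.68 ± 0.36, adjusted p = 7.45e-09). Darc, the chemokine-binding receptor of red cells that does not couple to G proteins, fell, with 84 and 53 counts in mutants and 433 and 411 in controls (-2.46 ± 0.13, adjusted p = 1.02e-10).

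Of 15 effectors of the Gq and G12 classes 12 rose, 1 fell and 2 did not pass, where 28.3% of all genes rose and 29.2% fell. Of the 13 past the minimum in all libraries 11 rose and 1 fell, where 26.2% and 31.7% of all genes past it did. The median of the 13 was 0.50, beside -0.02 for all genes past that minimum. Plcb2, a phospholipase C beta of blood cells, averaged 9.47 ± 0.194 CPM in mutants and 1.49 ± 0.101 CPM in controls (SD, n = 2 each; 2.65 ± 0.17, adjusted p = 9.47e-10). Prkca, the protein kinase C downstream of it, averaged 16.1 ± 0.563 CPM in mutants and 4.98 ± 0.351 CPM in controls (1.70 ± 0.12, adjusted p = 3.63e-09). The faller was Arhgef1, a guanine nucleotide exchange factor (-0.13 ± 0.05, adjusted p = 0.0281). Of 7 tested effectors of the beta-gamma pair, 5 rose and 1 fell, beside the same shares of all genes, and 2 were kept only through the mutant libraries. Of the 5 past the minimum in all libraries, 4 rose and 1 fell. Elmo1 and Dock2, which together activate the GTPase Rac, rose by 3.32 ± 0.12 and 2.28 ± 0.07 (adjusted p = 4.06e-13 and 3.43e-14). Prex1, a Rac exchange factor driven by beta-gamma, averaged 50 ± 2.55 CPM in mutants and 87.1 ± 4.0 CPM in controls (-0.80 ± 0.07, adjusted p = 2.31e-08).

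The cAMP branch and the list of receptor kinases and arrestins moved in both directions. Of 21 tested cAMP effectors, 8 rose and 4 fell, with a median of 0.11, where 28.3% of all genes rose and 29.2% fell. The filter kept 3 of the 21 only through the mutant libraries. Of the 18 past the minimum in all libraries, 6 rose and 4 fell, with a median of 0.01. Pde3a, a phosphodiesterase that breaks down cAMP, rose by 2.65 ± 0.28 (adjusted p = 4.5e-07) and the exchange factor Rapgef3 by 1.27 ± 0.26 (adjusted p = 0.000452). The catalytic subunit gene of protein kinase A, Prkaca, fell by 0.58 on the log2 scale and the anchoring protein gene Akap1 by 0.50 (adjusted p = 7.13e-07 and 4.7e-07). Of 11 genes listed as receptor kinases and arrestins, Arrdc1 to Arrdc4 among them and all past that minimum, 4 rose and 5 fell, beside the same shares of all genes. Arrb1, which encodes beta-arrestin 1, averaged 1230 ± 11.4 CPM in mutants and 2090 ± 30.1 CPM in controls (-0.77 ± 0.04, adjusted p = 4.24e-11), and Arrdc4 fell by 1.43 (adjusted p = 1.22e-07). The receptor kinase gene Adrbk2 (1.67 ± 0.22, adjusted p = 4.42e-06) and Arrdc3 (0.83 ± 0.08, adjusted p = 2.12e-07) rose.

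Of 10 tested regulators of the trimer cycle, 3 rose, 3 fell and 4 did not pass, where 28.3% of all genes rose and 29.2% fell. Of the 9 past the minimum in all libraries, 2 rose and 3 fell. Rgs7bp, which holds complexes of R7 family RGS proteins and Gnb5 at the membrane, had 36 and 15 counts in mutants, against 3 and 0 in controls (ratio 19.1, interval 6.18 to 95.6). The filter kept Rgs7bp only through the mutant libraries, as it did its partner Gnb5, whose call rests on mutant replicate 1. Rgs11, another partner, rose as well, and nothing is read from these genes together. Gpsm3, an inhibitor of nucleotide release by Gi subunits, averaged 9.01 ± 1.04 CPM in mutants and 3.56 ± 0.883 CPM in controls (1.34 ± 0.17, adjusted p = 3.66e-06). Gpsm2 (-0.31 ± 0.06, adjusted p = 0.000515) and Ric8, a chaperone and exchange factor for alpha subunits (-0.24 ± 0.05, adjusted p = 0.00102), fell.

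**Figure D5:**
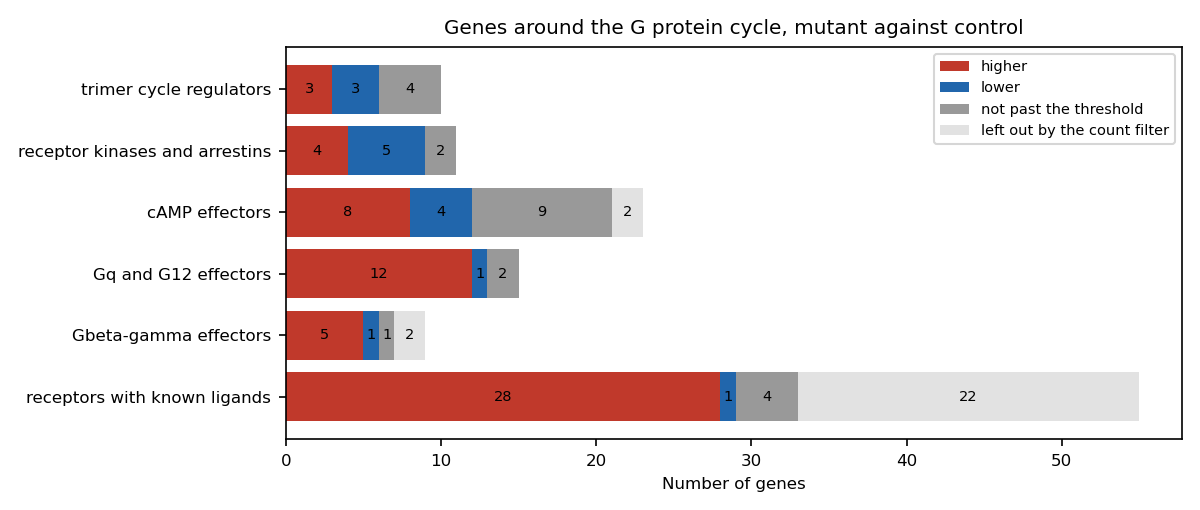
Number of genes of each list that rose (red), fell (blue), did not pass (grey) or were left out by the count filter (pale grey) in mutant against control cells. Rises outnumber falls in the receptor list (28 and 1, with 15 of its 33 tested genes kept only through the mutant libraries) and in the Gq and G12 effector list (12 and 1), and not among receptor kinases and arrestins (4 and 5). Over all genes tested, 28.3% rose and 29.2% fell.

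In the authors' deposited table, 65 of the 69 genes were listed, 32 of them higher and 11 lower at an adjusted p under 0.05. For the 61 that were tested here and listed with a log2 fold change under 20 in size, the authors' deposited table lay 0.14 above the values given here in the median on the log2 scale, and 59 had the same sign. Gnai2, Gna11, Adcy6, Gpr107 and Gpr146, called as falls here, were not called there, and Gna13 was called there as higher (0.24) and not here.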

How the data were processed

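Expression was measured by mRNA sequencing of 2 mutant and 2 control libraries. The submitters' processing notes name the tools FastQC, Bowtie and edgeR and the genome build mm9; the sources used here do not say how reads matching several places or either strand were counted. The authors deposited raw counts per gene, and a table of log2 fold changes with p-values and 0 or 1 flags, per the file headers; it also holds a log2 concentration per gene, and neither it nor the flags were used. The columns named WT were taken as the controls by number. Values of 2 counted genes are not reported here by name. A total of 12 rows with NA throughout were left out.

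The fit used edgeR 4.0.16 (R 4.3.3) on the counts: filterByExpr (minimum count 10), TMM, glmQLFit with robust, two-sided quasi-likelihood test, Benjamini-Hochberg adjustment over 13140 genes, threshold 0.05. The common coefficient of variation was 4.81%, so small changes pass. Whether the replicates are separate embryo pools rests on the labels. Ratios of small counts have exact 95% binomial intervals for counting error only. Exon lengths are merged exons of GENCODE M21, by gene identifier, and cover annotation newer than mm9. The fit was tested on simulated data. DESeq2 1.42.0, other scalings and filters, a replicate block and left-out libraries were alternatives. The members, lists and promoters shown were chosen with earlier results of these data known. Named in full were members of 100 or more counts that changed at least 2-fold, the leading member of each class, and of each list the 2 largest rises and falls at 1 CPM or more; others named were chosen after their values were seen. The planned comparison of gamma proteins was not made, as no protein table was used here.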

Additional observations from a re-analysis of the deposited data

How the results depend on the processing

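Of the 46 called genes, 38 kept their call and sign in every setting in which they were tested. Over scaling (RLE, upper quartile, library totals), filters, DESeq2 and the summed Gng2 rows, between 25 and 33 genes rose and between 10 and 17 fell. Asking for a 2-fold change left 23 rises and 2 falls. Leaving out single libraries gave 27 to 33 rises and 12 to 16 falls; the group with 1 library is then assumed to vary like the other. Rgs10 changed sign and passed under library total scaling (0.13), under which the median of all genes was 0.146, against 0.009 with TMM, and 5112 genes were higher and 2553 lower, against 3723 and 3835 with TMM. With the replicate block, 32 genes rose and 16 fell, with Gna13 among those added; with 2 numbers per group the labels do not show that equal numbers share a source. Replicate 1 minus replicate 2 correlated at 0.225 between the groups over 13140 genes. Without control replicate 1 the fitted changes of Gpr132 and Gpr65 were 7.25 and 7.13, and without control replicate 2 they were 3.4 and 3.28. For the members with 0 to 3 control counts, depth leaves the size of the change wide.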
